A study of Mus musculus with 6 samples.

Results

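The 42 genes described here encode the basement membrane and the integrins that bind it, and were chosen by name from 19938 genes measured with their own probe sets in mouse embryonic stem (ES) cells. They are 10 laminin chains, 6 collagen IV chains, 7 further matrix proteins, 4 genes that process or cleave matrix, the laminin receptor dystroglycan, 8 integrin alpha chains and 6 integrin beta chains. Each had a single probe set that names it alone on the Affymetrix Mouse Gene 1.0 ST array. One group was Scc1 lox/lox ERT2-Cre cells with 4-hydroxytamoxifen (4-OHT) for 24 h (3 arrays), in which both alleles of Scc1 can be excised by Cre, and the other was Scc1 wt/wt ERT2-Cre cells given the same treatment (3 arrays). Both groups carry ERT2-Cre, a recombinase that enters the nucleus with 4-OHT, both received 80 nM of it, and both are female cells of a mixed C57BL/129 background. All cells grew without serum in N2B27 medium with LIF and the inhibitor pair called 2i, on plates coated with laminin at 10 ng/mL, so laminin protein was supplied from outside in both groups. The labels do not say how many cell lines stand behind each genotype, and cells without 4-OHT were not analysed here, so a difference made by the genotype before treatment cannot be told apart from one made by the loss of Scc1. In RNA from whole cultures, fewer cells that express a gene and less RNA per cell cannot be told apart either.

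A basement membrane is a thin sheet of matrix under epithelia, built from a laminin network and a collagen IV network that nidogens and heparan sulphate proteoglycans tie together. Laminins are trimers of an alpha, a beta and a gamma chain, and cells hold them through integrins, which are pairs of an alpha and a beta chain, and through dystroglycan. In the early mouse embryo the epiblast and the primitive endoderm lie on either side of such a sheet, and ES cells in culture attach to laminin mainly through integrins that contain the alpha6 and beta1 chains.

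The gene under the label Scc1 is measured on the array as Rad21, the kleisin subunit of the cohesin ring. It stood at 6.08, 6.06 and 6.14 (log2 values after robust multi-array averaging, RMA) on the lox/lox arrays, against 10.05, 9.99 and 10.01 on the wt/wt arrays, which is 15.2-fold lower (adjusted p = 1.57e-09 in limma). Medians of the 6 arrays lay between 4.85 and 4.94, and pairwise correlations between 0.9892 and 0.9947. Lox/lox replicate 3 and wt/wt replicate 2 stood apart from the other arrays of their genotypes on the first component of the within-genotype deviations (loadings of -0.537 and -0.576, with the others between 0.101 and 0.475). This component held 41.2% of the within-genotype variance. The wt/wt arrays were spread along it, with replicate 1 at the other end (0.475). Where leaving out a single array ended a call of a gene named below, this is said beside it. Of the ES cell markers 1 was higher and 8 were lower among 16 measured (56.2%, beside 6.16% of all genes). Their mean log2 level was 9.43 to 9.57 on lox/lox arrays and 9.78 to 9.85 on wt/wt arrays. All 16 lay above the median of all probe set values, 4.90, and Pou5f1, which defines pluripotent cells, averaged 11.86 in lox/lox cells and 12.02 in wt/wt cells (adjusted p = 0.275). The smallest p among these markers were those of Prdm14, with a log2 change of -1.82 (adjusted p = 3.65e-05), Klf4 with -1.23 (adjusted p = 0.000151) and Lin28a with 1.32 (adjusted p = 0.000157). Sox2 and Nanog, central pluripotency factors, were also lower (log2 changes of -0.48 and -0.55).

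Basement membrane and integrin genes differed between the genotypes in both directions. Of the 42, 15 passed an adjusted p under 0.05 (35.7%), beside 6.16% of all genes tested. The members were chosen with earlier results of these data known, so this excess is not a test of the family. In lox/lox cells 7 were higher, beside 2.55% of all genes, and 8 were lower, beside 3.61%. The median log2 change over the 42 was 0.061, and over all genes it was -0.008. Among members whose mean lay above the array median, 14 of 35 were called, beside 10.0% of the genes above it, and among the 7 dimmer members only Itga1 was called. The arrays of the genotypes did not overlap in 21 members, beside 22.8% of all genes. Those 21 were the 15 called members and Lamb3, Hspg2, P4ha2, Serpinh1, Itga5 and Itga9. A change of at least 1.5-fold was measured in 6 of the called members, namely Htra1, Itgb5, Itga6, Itga3, Nid1 and Lamb1, and of these only Lamb1 was higher. The number called was 8 without lox/lox replicate 2 (3 higher and 5 lower). The higher members numbered 4 without lox/lox replicate 3 or wt/wt replicate 2, the lower ones 5 without wt/wt replicate 3, and 9 members passed without both arrays that stood apart.

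**Figure D1:**
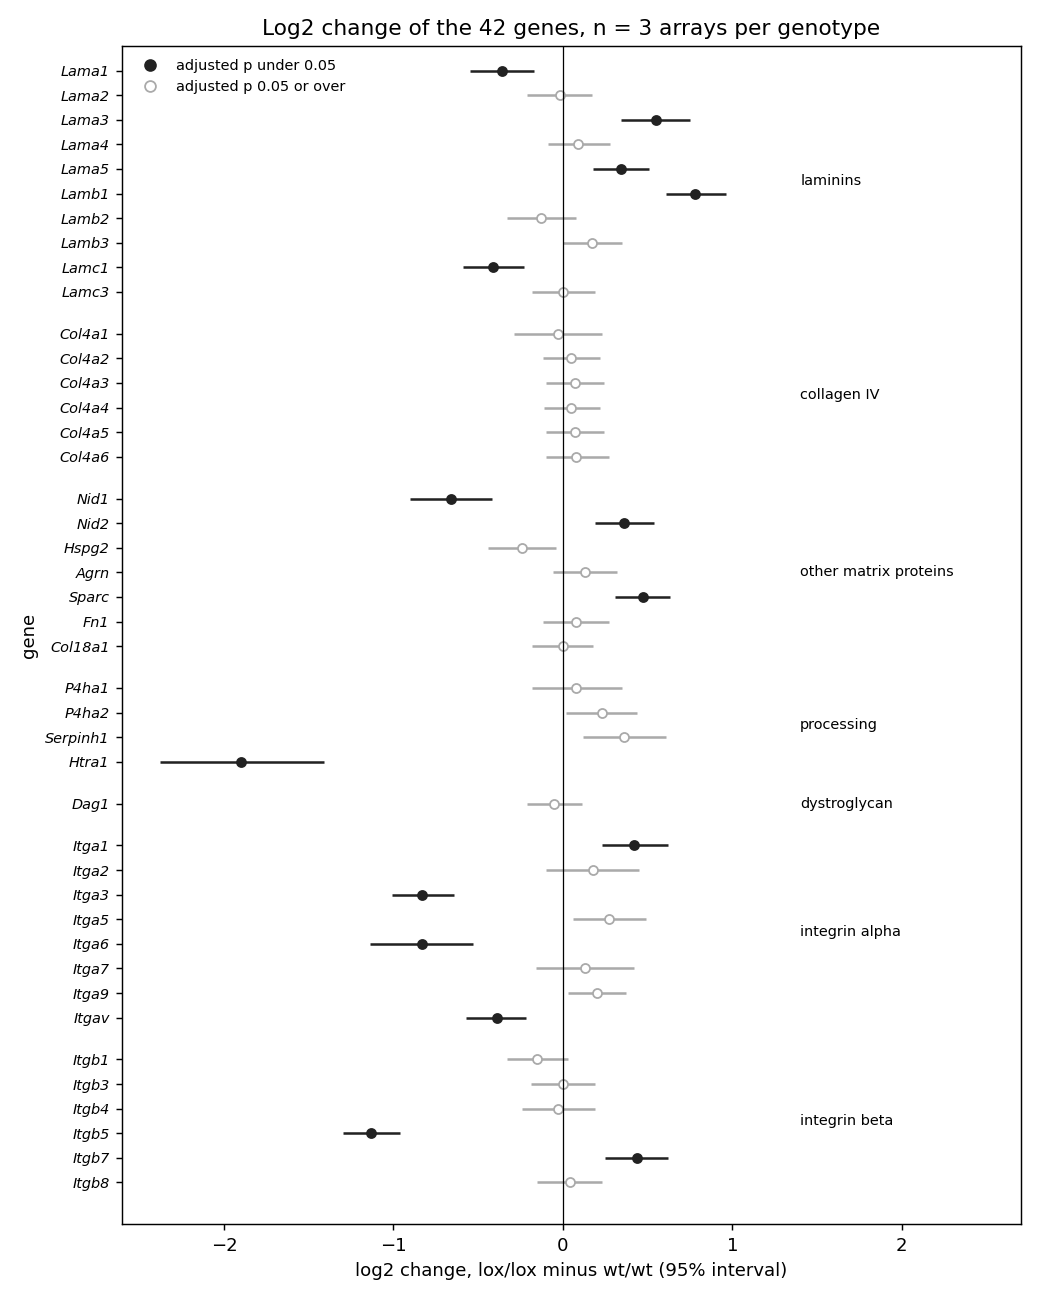
Log2 change (lox/lox minus wt/wt, horizontal axis) of each of the 42 genes, grouped by role from laminins at the top to integrin beta chains at the bottom. Points are limma estimates, lines are 95% intervals, and filled points have an adjusted p under 0.05. Filled points lie on both sides of 0 among laminins, nidogens and integrins, and all 6 collagen IV chains are open points between -0.03 and 0.08.

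The start regions of the 4 called genes with the largest changes that had a single start window in the RefSeq promoter table of build GRCm38.p6 are shown, because these genes carry some of the largest differences on the list, in both directions. Each window runs from 250 bases before to 50 bases after the annotated start and is printed 5′ to 3′ on the gene's strand, with every CCCTC, or its reverse complement GAGGG, in capitals. That run gave the CCCTC-binding factor CTCF its name, and CTCF holds cohesin at many sites in the genome.
Htra1, lower in lox/lox cells, chr7:130935953-130936252, plus strand: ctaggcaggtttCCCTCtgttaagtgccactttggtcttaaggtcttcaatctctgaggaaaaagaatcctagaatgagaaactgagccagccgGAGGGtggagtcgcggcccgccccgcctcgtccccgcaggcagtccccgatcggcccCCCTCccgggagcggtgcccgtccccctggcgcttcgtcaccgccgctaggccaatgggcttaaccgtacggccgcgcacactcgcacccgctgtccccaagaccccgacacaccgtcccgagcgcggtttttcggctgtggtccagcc
Itgb5, lower in lox/lox cells, chr16:33829415-33829714, plus strand: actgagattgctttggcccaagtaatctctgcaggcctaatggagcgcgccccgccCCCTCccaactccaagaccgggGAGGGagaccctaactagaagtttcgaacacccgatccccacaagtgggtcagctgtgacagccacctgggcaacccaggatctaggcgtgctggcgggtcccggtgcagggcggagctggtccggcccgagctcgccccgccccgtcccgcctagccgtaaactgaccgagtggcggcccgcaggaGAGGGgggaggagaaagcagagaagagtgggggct
Lamb1, higher in lox/lox cells, chr12:31265043-31265342, plus strand: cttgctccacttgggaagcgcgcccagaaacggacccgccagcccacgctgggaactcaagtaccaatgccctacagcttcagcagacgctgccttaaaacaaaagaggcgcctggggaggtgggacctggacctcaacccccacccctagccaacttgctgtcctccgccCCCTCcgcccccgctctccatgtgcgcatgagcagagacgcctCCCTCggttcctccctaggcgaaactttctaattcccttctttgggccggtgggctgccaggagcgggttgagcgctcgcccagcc
Nid1, lower in lox/lox cells, chr13:13437352-13437651, plus strand: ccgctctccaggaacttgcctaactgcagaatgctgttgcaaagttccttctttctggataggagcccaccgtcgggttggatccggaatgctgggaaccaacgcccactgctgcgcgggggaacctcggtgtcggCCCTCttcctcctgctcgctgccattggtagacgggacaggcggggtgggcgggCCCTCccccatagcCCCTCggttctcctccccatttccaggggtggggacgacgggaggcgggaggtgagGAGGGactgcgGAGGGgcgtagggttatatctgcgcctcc
The run occurs 3 times in the window of Htra1, 3 times in that of Itgb5, 2 times in that of Lamb1 and 5 times in that of Nid1, so it is found at the higher gene and at the lower ones. Of the 42 members 30 had at least 1 window, 35 windows in all, and 33 of these (94.3%) held the run, beside 66% of 32851 windows of all genes. Windows of the members had a median GC content of 63.3% and those of all genes one of 52.7%, and the share was not adjusted for this. The E-box CACGTG, which reads the same on both strands and is bound by Myc, was in 0 of the 35 windows, beside 7.15% of all windows. A run of so few letters is not evidence of binding, and no binding was measured.

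Laminin genes split into higher and lower chains, also within the alpha chains. Lamb1, the beta chain of most embryonic laminins, had values of 7.36, 7.49 and 7.54 in lox/lox cells, against 6.69, 6.73 and 6.63 in wt/wt cells. Each lox/lox array lay above each wt/wt array, and the level was 1.72-fold higher (log2 change 0.78, standard error 0.08, adjusted p = 0.000378). It was the largest increase among the 42 genes, and its start window is printed above. Lamc1, the gamma chain with which Lamb1 pairs, moved the other way, with 8.94, 8.81 and 8.83 in lox/lox cells against 9.17, 9.36 and 9.28 in wt/wt cells. Its fall by 0.41 on the log2 scale (standard error 0.08, adjusted p = 0.0147) did not pass without lox/lox replicate 2, wt/wt replicate 2 or wt/wt replicate 3 (adjusted p up to 0.0762).

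Among the laminin alpha chains, Lama1, which forms the first laminin of the embryo, read 7.03, 6.98 and 7.22 in lox/lox cells and 7.45, 7.45 and 7.40 in wt/wt cells. The groups did not overlap and the level fell by 0.36 (log2, standard error 0.08, adjusted p = 0.0319). Lama5, the alpha chain found most widely in basement membranes, read 8.10, 8.06 and 8.11 in lox/lox cells and 7.69, 7.72 and 7.82 in wt/wt cells. It was 1.27-fold higher (log2 change 0.34, standard error 0.08, adjusted p = 0.0236), again with no overlap. Lama3, an alpha chain of epithelial laminins, stood at 5.70, 5.70 and 5.49 in lox/lox cells, against 5.08, 4.97 and 5.19 in wt/wt cells. This gene, near the array median in wt/wt cells, was 1.46-fold higher (log2 change 0.55, standard error 0.09, adjusted p = 0.00616). Lama3 passed whichever array was left out, whereas Lama1 passed only without lox/lox replicate 3 (adjusted p up to 0.142) and Lama5 only without wt/wt replicate 3 (adjusted p up to 0.0781). The remaining 5 chains, Lama2, Lama4, Lamb2, Lamb3 and Lamc3, had log2 changes between -0.13 and 0.17 and did not pass. Of these, Lamb3, the beta chain that pairs with Lama3 in epithelia, was the 1 whose arrays did not overlap (5.52 ± 0.03 against 5.35 ± 0.09, SD, n = 3 each, adjusted p = 0.272 in limma).

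The opposite calls within laminins were also set against each other on each array. The log2 value of Lamb1 minus that of Lamc1 was -1.57, -1.33 and -1.30 in lox/lox cells, against -2.48, -2.63 and -2.65 in wt/wt cells, so the balance of the pair moved by 1.19 toward Lamb1. Lama5 minus Lama1 was 1.07, 1.08 and 0.89 in lox/lox cells and 0.24, 0.27 and 0.42 in wt/wt cells, a move of 0.70 toward Lama5. A level of one probe set cannot be compared with that of another, and only the move between genotypes is meaningful. Each of these moves gave p = 0.1 in an exact two-sided permutation test, the smallest that 3 against 3 arrays allow, and 0.125 after adjustment over 5 pairs, which were picked after the values had been seen. Both genes of each of these pairs already separated the genotypes in opposite directions. The p of their difference was thereby fixed in advance and adds no support. A pair of collagen IV chains among the 5, Col4a2 minus Col4a1, moved by 0.08 (p = 0.8 in the exact permutation test).

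**Figure D2:**
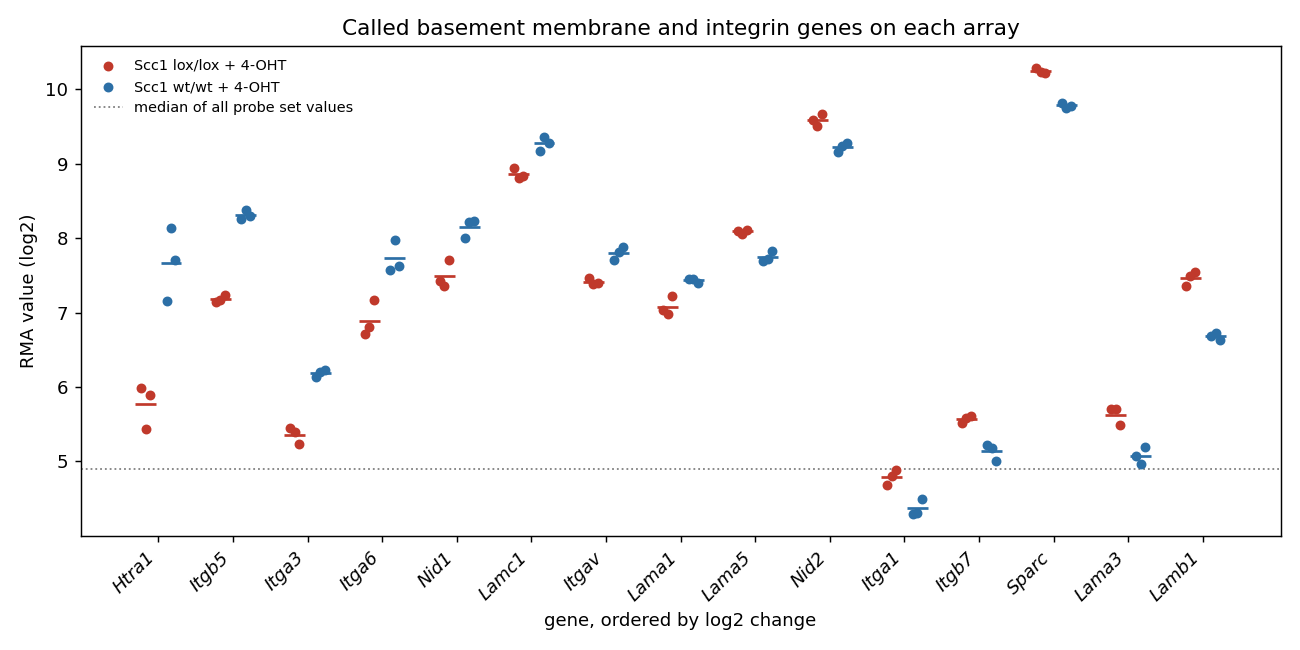
RMA values (log2, vertical axis) of the 15 called genes on each array, with lox/lox arrays to the left of wt/wt arrays, bars at the group means and the dotted line at the median of all probe set values, 4.90. The 3 arrays of one genotype lie above the 3 of the other in every gene shown, and the widest spread is that of Htra1 in wt/wt cells, from 7.16 to 8.13.

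Collagen IV chains did not pass, with log2 changes between -0.03 and 0.08. Col4a1, part of the main collagen IV trimer with Col4a2, read 6.0, 6.13 and 5.78 in lox/lox cells and 6.20, 5.82 and 5.97 in wt/wt cells. The arrays overlapped, and the log2 change was -0.03 with a 95% interval from -0.29 to 0.23. Col4a2 read 5.86, 5.85 and 5.76 in lox/lox cells and 5.79, 5.83 and 5.71 in wt/wt cells, with a log2 change of 0.05 (interval -0.12 to 0.22). The kidney and lens chains Col4a3, Col4a4, Col4a5 and Col4a6 had log2 changes of 0.05 to 0.08, with upper bounds of at most 0.27. Of the 6 chains 0 passed in limma, and 0 had an unadjusted p under 0.05. The 4 chains Col4a3 to Col4a6 lay close to the array median, between 4.60 and 5.41 on average in each genotype, where background makes a change read smaller.

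Col4a1 and Col4a2 lie head to head on chromosome 8, and their start windows in the RefSeq table overlap by 78 bases. That shared stretch is shown because it lies in the windows of both genes, of which neither was called. The CCCTC run is in capitals as above, and the bases are written on the strand of Col4a2.
Col4a2 and Col4a1, chr8:11312777-11312854, plus strand: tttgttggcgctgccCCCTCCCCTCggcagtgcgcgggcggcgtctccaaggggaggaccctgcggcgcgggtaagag
It holds the run 2 times, directly one after the other.

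The nidogens, which bridge the laminin and collagen IV networks, moved in opposite directions. Nid1 read 7.42, 7.35 and 7.70 in lox/lox cells, against 8.0, 8.22 and 8.23 in wt/wt cells. It was 1.58-fold lower (log2 change -0.66, standard error 0.11, adjusted p = 0.00524) and passed in each fit without 1 array. Nid2 read 9.58, 9.51 and 9.66 in lox/lox cells, against 9.15, 9.24 and 9.27 in wt/wt cells, with no overlap. Its 1.29-fold higher level (log2 change 0.36, standard error 0.08, adjusted p = 0.0225) passed with all 6 arrays and in 0 of the 6 fits without 1 array, where its adjusted p reached 0.0691 without lox/lox replicate 1. The difference Nid2 minus Nid1 was 2.16, 2.15 and 1.96 in lox/lox cells and 1.14, 1.02 and 1.03 in wt/wt cells, a move of 1.02 on the log2 scale. Its exact permutation p was 0.1, the smallest possible, and 0.125 after adjustment over the 5 pairs. This p, too, was fixed by the opposite separation of both genes and adds no support.

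Sparc, a collagen-binding glycoprotein that is abundant in basement membranes of the early embryo, was higher in lox/lox cells. Its values were 10.28, 10.23 and 10.22 in lox/lox cells, against 9.81, 9.75 and 9.77 in wt/wt cells. The spread within each genotype (SD 0.03 in both) was small beside the 1.38-fold change (log2 change 0.47, standard error 0.07, adjusted p = 0.00386), which passed in each fit without 1 array. Fn1, the fibronectin gene, read 10.37, 10.39 and 10.58 in lox/lox cells and 10.30, 10.45 and 10.36 in wt/wt cells. The genotypes overlapped, and the log2 change was 0.08 (interval -0.12 to 0.27). Hspg2, which encodes perlecan, read 7.47, 7.25 and 7.42 in lox/lox cells and 7.50, 7.63 and 7.72 in wt/wt cells. All its lox/lox arrays lay below the wt/wt arrays, yet the log2 change of -0.24 did not pass (standard error 0.09, adjusted p = 0.19). Agrn, the proteoglycan agrin, and Col18a1, whose product carries endostatin at its end, had log2 changes of 0.13 and 0.00 with overlapping arrays.

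The largest change among the 42 genes was that of Htra1, a secreted serine protease that cleaves fibronectin and other matrix proteins. It read 5.98, 5.43 and 5.89 in lox/lox cells, against 7.16, 8.13 and 7.71 in wt/wt cells. Every lox/lox array lay more than 1 log2 unit below the lowest wt/wt array, and the level was 3.73-fold lower (log2 change -1.90, standard error 0.22, adjusted p = 0.00073). The wt/wt arrays also differed most among themselves here (SD 0.49), and the log2 change lay between -2.15 and -1.67 when single arrays were left out. Serpinh1, the collagen chaperone of the endoplasmic reticulum, read 8.48, 8.36 and 8.24 in lox/lox cells and 8.20, 7.79 and 8.0 in wt/wt cells. Its log2 change of 0.36 was the largest among members that did not pass (standard error 0.11, adjusted p = 0.0935), and it passed once wt/wt replicate 1 was left out (adjusted p = 0.031). P4ha1 and P4ha2, catalytic chains of collagen prolyl hydroxylase, had log2 changes of 0.08 and 0.23 and did not pass.

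The laminin-binding integrin chains Itga6 and Itga3 were lower, and the collagen-binding chain Itga1 was higher. Itga6, whose product pairs with the beta1 or beta4 chain as a laminin receptor, read 6.71, 6.80 and 7.17 in lox/lox cells, against 7.57, 7.97 and 7.63 in wt/wt cells. The groups did not overlap, and the level was 1.78-fold lower (log2 change -0.83, standard error 0.14, adjusted p = 0.00549). Itga3, another laminin-binding chain, read 5.45, 5.40 and 5.24 in lox/lox cells, against 6.14, 6.20 and 6.23 in wt/wt cells. It fell by 0.83 on the log2 scale (standard error 0.08, adjusted p = 0.000342). Both passed in each fit without 1 array. Itga7, a laminin-binding chain best known from muscle, did not follow them, with 5.43 ± 0.21 against 5.30 ± 0.22 (SD, n = 3 each, adjusted p = 0.696 in limma). Itga1, which binds collagen IV, read 4.69, 4.80 and 4.88 in lox/lox cells, against 4.30, 4.31 and 4.50 in wt/wt cells. Its mean lay below the array median in both genotypes. The log2 change was 0.42 (standard error 0.09, adjusted p = 0.0191). This call was lost without lox/lox replicate 2 or 3 or wt/wt replicate 1 or 2 (adjusted p up to 0.0821). A filter that kept only genes above the median removed Itga1, so that setting did not test it. Itga2, the other collagen-binding chain on the list and the gene next to Itga1, had a log2 change of 0.18 (adjusted p = 0.53).

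Integrins that bind fibronectin or vitronectin include those with the alpha5 chain or the alphav chain. Itgb5, which pairs with alphav as a vitronectin receptor, had the smallest p of the 42 genes. It read 7.14, 7.17 and 7.24 in lox/lox cells, against 8.26, 8.38 and 8.29 in wt/wt cells. That is a 2.19-fold lower level (log2 change -1.13, standard error 0.08, adjusted p = 4.04e-05), and the log2 change lay between -1.16 and -1.09 when single arrays were left out. Itgav, its partner, read 7.46, 7.38 and 7.39 in lox/lox cells and 7.71, 7.81 and 7.88 in wt/wt cells. Both chains of the pair were thus lower, Itgav by 0.39 on the log2 scale (standard error 0.08, adjusted p = 0.0151), a call that was lost without lox/lox replicate 2 or wt/wt replicate 3 (adjusted p up to 0.0784). Itga5, the fibronectin-binding chain, had 5.09 ± 0.18 in lox/lox cells and 4.82 ± 0.03 in wt/wt cells (SD, n = 3 each) and did not pass (adjusted p = 0.154 in limma).

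Itgb1, the partner of most alpha chains named here, read 8.92, 8.85 and 9.06 in lox/lox cells and 9.06, 9.13 and 9.09 in wt/wt cells. The highest lox/lox array and the lowest wt/wt array met at the same rounded value, and the log2 change was -0.15 (interval -0.33 to 0.03, adjusted p = 0.401). Dag1, the dystroglycan gene, read 8.50, 8.45 and 8.44 in lox/lox cells and 8.55, 8.52 and 8.46 in wt/wt cells, with a log2 change of -0.05 (interval -0.21 to 0.11). The interval of Dag1 excludes a change of the size measured for Itga6 or Itga3. Within arrays, Itgb1 minus Itga6 was 2.20, 2.06 and 1.89 in lox/lox cells and 1.49, 1.16 and 1.45 in wt/wt cells, a move of 0.68 away from Itga6. Its exact permutation p was 0.1, the smallest possible, and 0.125 after adjustment over the 5 pairs. The pair was picked after the values had been seen. Itga6 alone already separated the genotypes and Itgb1 changed little, so this p restates the call of Itga6 and adds no support. Itgb7, known as a partner of alpha4 on lymphocytes, read 5.52, 5.59 and 5.61 in lox/lox cells, against 5.22, 5.18 and 5.01 in wt/wt cells. The arrays did not overlap, and the 1.35-fold higher level (log2 change 0.44, standard error 0.08, adjusted p = 0.0116) lost its call without lox/lox replicate 2 or wt/wt replicate 3 (adjusted p up to 0.0594). Itgb3, Itgb4 and Itgb8 had log2 changes of 0.00, -0.03 and 0.04, and Itga9, which binds tenascin, one of 0.20 (adjusted p = 0.186).

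**Figure D3:**
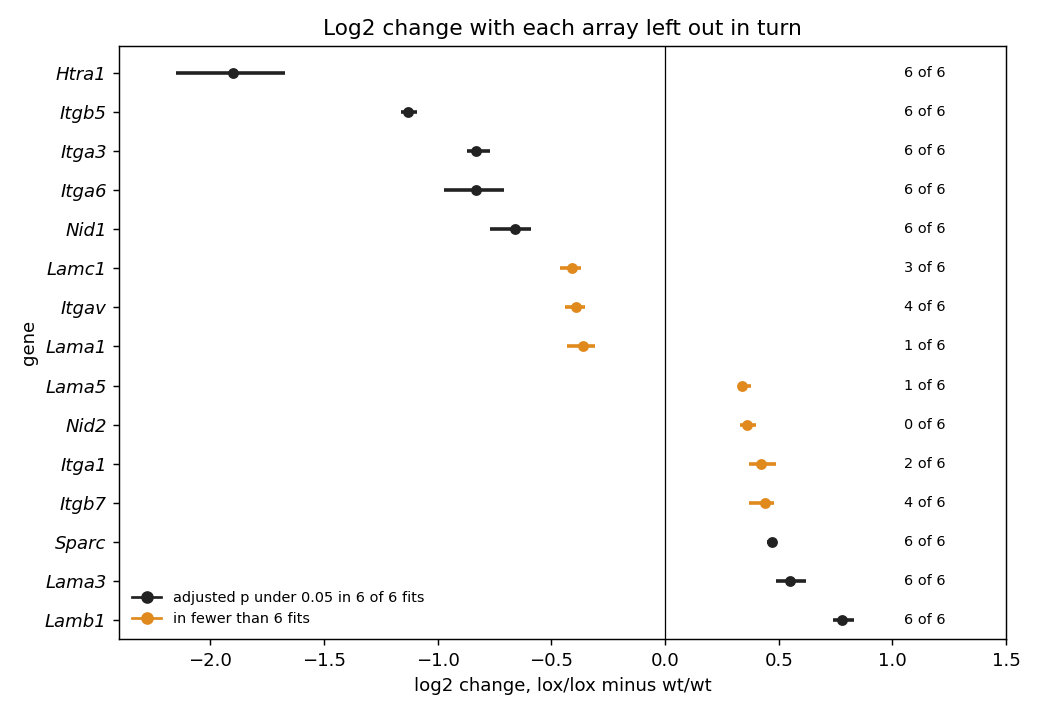
Log2 change (lox/lox minus wt/wt, horizontal axis) of the 15 called genes: points show the fit of all 6 arrays, lines the range over 6 fits that each leave out 1 array, and the text at the right the number of those fits with an adjusted p under 0.05. No line reaches 0, and 8 genes passed in all 6 fits, whereas Nid2 passed in 0 of them.

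Other genes of matrix and adhesion were counted from 7 lists for comparison. Of 139 measured, 10 were higher and 10 lower (14.4%, beside 6.16% of all genes), and their median log2 change was 0.019. The number called was 13 without lox/lox replicate 1, 8 without lox/lox replicate 2, 9 without wt/wt replicate 3 and 12 without both arrays that stood apart. Other receptors for laminin and matrix held 6 of these calls, 3 of 16 higher and 3 lower (37.5%, beside 6.16% of all genes). Sdc4, the heparan sulphate proteoglycan syndecan-4 of focal adhesions, was 2.41-fold higher (9.62 ± 0.13 in lox/lox cells and 8.35 ± 0.01 in wt/wt cells, SD, n = 3 each, adjusted p = 3.95e-05 in limma). Ddr1, a receptor kinase for collagen, was 1.57-fold higher (adjusted p = 0.00095), and Gpc3, a glypican, fell by 0.79 on the log2 scale (adjusted p = 0.00192). Gpc1, another glypican, fell by 0.69 (adjusted p = 0.0101) and lost its call without lox/lox replicate 2 or wt/wt replicate 3 (adjusted p up to 0.0552).

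Inside the cell, 1 of 27 adaptors and kinases of focal adhesions was higher and 1 was lower (7.41%, beside 6.16% of all genes). An unadjusted p under 0.05 was met by 12 of the 27, beside 3579 of all 19938 genes, and the arrays did not overlap in 13 of the 27, beside 22.8% of all genes. Fermt2, which encodes kindlin-2, an activator of integrins, fell by 0.36 on the log2 scale (adjusted p = 0.022), and Parvb rose by 0.40 (adjusted p = 0.0459). These calls were lost in 4 and 5 of the 6 fits without 1 array, with adjusted p up to 0.103 for Fermt2 and 0.182 for Parvb, both without lox/lox replicate 2. In limma 0 of 12 further integrin chains passed, with 0 at an unadjusted p under 0.05, and 0 of 12 enzymes that glycosylate dystroglycan passed, with 2 at an unadjusted p under 0.05.

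Of 24 further matrix proteins of basement membranes and adhesion 4 were higher and 1 lower (20.8%, beside 6.16% of all genes). Frem2, of the complex that anchors embryonic epidermis, rose by 0.63 (adjusted p = 0.00279) and Ntn1, a laminin-related guidance protein, by 0.46 (adjusted p = 0.0065). Egfl6 fell by 0.41 (adjusted p = 0.0314) and Smoc1 rose by 0.36 (adjusted p = 0.0315), and Egfl6 passed in 2 and Smoc1 in 1 of the 6 fits without 1 array. Both lost their call without lox/lox replicate 2 or 3 or wt/wt replicate 1 or 3, and Smoc1 also without wt/wt replicate 2 (adjusted p up to 0.138). Among 22 genes of collagen modification and secretion 1 rose and 3 fell (18.2%, beside 6.16% of all genes). Pcolce, which enhances procollagen processing, was 1.93-fold higher (adjusted p = 0.000767), and the cross-linking enzyme gene Tgm2 fell by 0.80 (adjusted p = 0.0029). Colgalt1, which glycosylates collagen, fell by 0.34 (adjusted p = 0.0203), and Mia3, which helps to load collagen for secretion, by 0.39 (adjusted p = 0.0313), and these passed in 2 and 1 of the fits without 1 array. Both lost their call without lox/lox replicate 1 or 2 or wt/wt replicate 3, Colgalt1 also without wt/wt replicate 1, and Mia3 also without lox/lox replicate 3 or wt/wt replicate 2 (adjusted p up to 0.0964). Among 26 matrix proteases and inhibitors 1 rose and 2 fell (11.5%, beside 6.16% of all genes and 10.0% of those above the array median). Plaur, the urokinase receptor, rose by 0.86 (adjusted p = 0.000384). Adam10, a membrane protease, fell by 0.57 (adjusted p = 0.0087) and Htra2, a mitochondrial relative of Htra1, by 0.38 (adjusted p = 0.021). Adam10 lost its call without lox/lox replicate 2 (adjusted p = 0.0507), and Htra2 without lox/lox replicate 2 or 3 or wt/wt replicate 2 or 3 (adjusted p up to 0.0926).

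**Figure D4:**
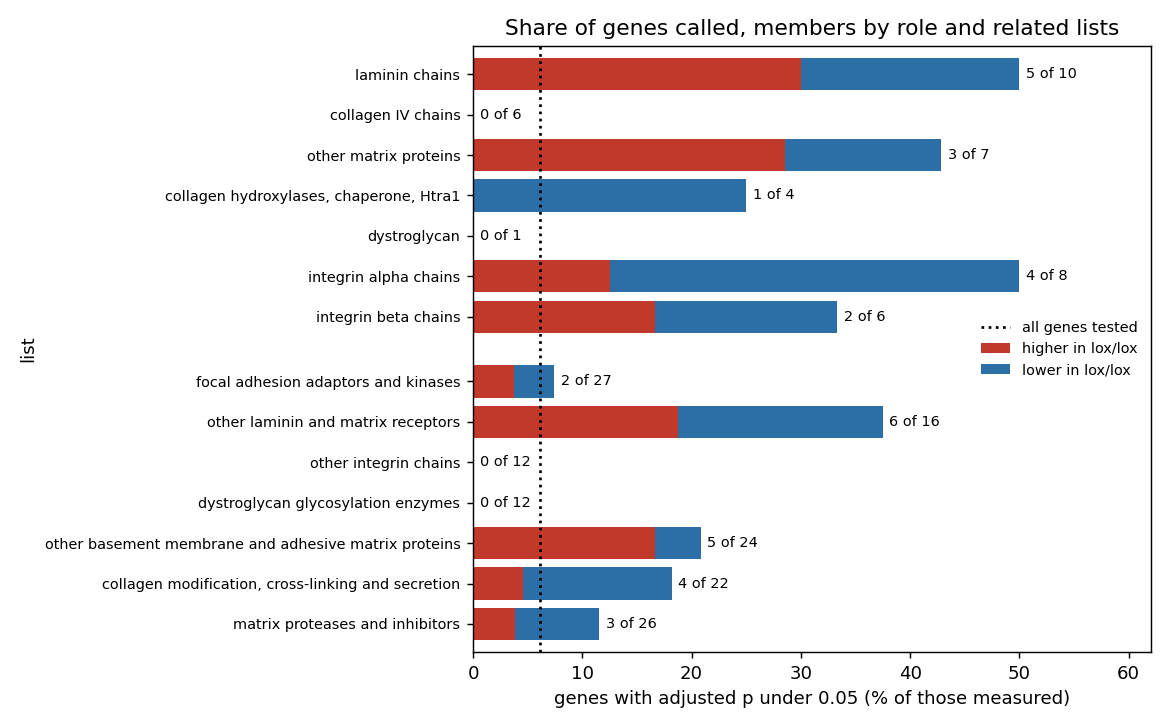
Percentage of measured genes with an adjusted p under 0.05 in each role of the 42 genes (upper 7 bars) and in each related list (lower 7 bars), split into higher and lower in lox/lox cells, with the number called at the bar's end and the dotted line at 6.16%, the share of all genes. Laminins and integrin alpha chains reach 50%, and collagen IV, dystroglycan, other integrin chains and dystroglycan glycosylation enzymes are at 0.

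Several other cell types make these matrix genes, so their markers were read on the same arrays. Primitive and parietal endoderm, which secrete much laminin and collagen IV, were represented by 22 markers, of which 1 was higher and 2 lower. That is 13.6%, beside 6.16% of all genes and 10.0% of those above the array median. The mean log2 level of these markers was 4.86 to 4.99 on lox/lox arrays and 4.82 to 5.07 on wt/wt arrays. The defining genes Gata6, Sox17 and Pdgfra averaged 4.52, 3.92 and 4.53 in lox/lox cells and 4.50, 4.03 and 4.52 in wt/wt cells, all below the array median, and 11 of the 22 markers lay below it. The other 11 lay above it, among them Gata4 (5.12 in lox/lox cells and 4.85 in wt/wt cells, adjusted p = 0.366) and Hnf4a (5.71 in lox/lox cells and 5.43 in wt/wt cells, adjusted p = 0.16), which were not called. The called ones were Cited1 at -1.14 (adjusted p = 0.000405), Krt19 at 0.65 (adjusted p = 0.0115) and Srgn at -0.41 (adjusted p = 0.0232). Krt19 was not called without wt/wt replicate 3 (adjusted p = 0.0569), and Srgn was not called without lox/lox replicate 1 or 3 or wt/wt replicate 2 or 3 (adjusted p up to 0.0859). Of 18 fibroblast markers 0 passed in limma, with 3 at an unadjusted p under 0.05, and their mean log2 level was 5.15 to 5.34 on lox/lox arrays and 5.11 to 5.32 on wt/wt arrays. Of 12 trophectoderm markers 1 was higher and 4 were lower (41.7%, beside 6.16% of all genes), with mean log2 levels of 5.40 to 5.49 on lox/lox arrays and 5.72 to 5.73 on wt/wt arrays. Among these markers Ets2 fell by 1.64 (adjusted p = 7.87e-05), Tead4 by 0.59 (adjusted p = 0.00159) and Tfap2c by 0.87 (adjusted p = 0.00991). The higher one, Ascl2, rose by 0.55 (adjusted p = 0.0386). It lost its call without lox/lox replicate 1, 2 or 3 or wt/wt replicate 2 (adjusted p up to 0.129). Cdx2, Eomes, Elf5 and Hand1 had log2 changes of 0.18, -0.04, -0.08 and 0.1 and were not called. No marker is at 0 on an array of this kind, and the part of these lists, and of the lower ES cell markers given above, in the changes of matrix genes was not tested.

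Position on the chromosome was the last feature examined. For each of the 15 called members the 2 nearest measured genes on each side were read, by gene order in GRCm38.p6. Of these 60 neighbours 7 were called (11.7%, beside 6.16% of all genes and 10.0% of those above the array median), and 5 of the 7 moved in the direction of the member. Lama3 lay between 2 of them, Ttc39c, directly beside it, at 0.98 (adjusted p = 0.000344), and Npc1, a cholesterol transporter, at 0.40 (adjusted p = 0.0166), which lost its call without lox/lox replicate 2 or 3 or wt/wt replicate 3 (adjusted p up to 0.0709). Gpr137b, beside Nid1, changed by -0.75 (adjusted p = 0.0138, but 0.0684 without lox/lox replicate 2), Umps, beside Itgb5, by -0.53 (adjusted p = 0.00754), and Rarg, beside Itgb7, by 0.50 (adjusted p = 0.00748). Against the direction of their members, Pdk1, beside Itga6, rose by 1.02 (adjusted p = 0.00095) and Gng2, near Nid2, fell by 0.74 (adjusted p = 0.00463). The 2 neighbours on each side of Htra1 and of Lamb1, 8 genes in all, were not called. Of the members, Itgb7 and Itga5 share chromosome 15 with Rad21, at 547 and 585 measured genes from it.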

How the data were processed

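The deposited values are log2 signals of each probe set. The submitters' processing notes name RMA and affy, without options or versions; a genome build is likewise not given in the sources used. Background keeps dim genes above 0, so a fold change near the array median understates a change, and RMA hides a shift of all RNA. The dose of 4-OHT is in nM in the labels and in mM in the design text.

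Of 35556 probe sets, 21789 had 1 gene symbol in the platform annotation. The probe set with the highest mean stood for a gene, which left 19938 genes. No gene was filtered. Genotypes were compared across all genes with limma 3.58.1 in R 4.3.3 (lmFit, eBayes, lox/lox minus wt/wt), and a gene was called where its p, adjusted by Benjamini and Hochberg's method, was under 0.05. The p-values rest on the spread between 3 arrays per genotype, which limits precision. In eBayes the spread of each gene is drawn toward a value estimated from all genes (6.14 prior and 4 residual degrees of freedom). The code was tested on simulated arrays.

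Members, lists and tests were chosen with earlier results of these data known. All 42 members could be named. Values per array were given for called members and a fixed set of central ones, and of related and marker lists the called genes with the smallest p. Some further genes were named after their values were seen. Alternatives were other normalizations, a filter on dim genes, other probe set rules, variance models, array weights, a replicate block, single arrays left out and stricter thresholds.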

Additional observations from a re-analysis of the deposited data

How the results depend on the processing

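All 15 called members kept their direction in every fit that tested them, and 8 of them (Lama3, Lamb1, Nid1, Sparc, Htra1, Itga3, Itga6 and Itgb5) passed whichever single array was left out. Quantile normalization, median centring, cyclic loess, all probe sets and the mean of probe sets kept the count at 15. The filter on dim genes gave 14, since it removed Itga1 before testing. Fits by eBayes with trend and robust or with array weights gave 16, with Serpinh1 added. Without both arrays that stood apart, wt/wt replicate 2 and lox/lox replicate 3, there were 9 (3 higher), with 12 related and 697 of all genes. At an adjusted p under 0.01 there were 8 (3 higher and 5 lower), with 9 related and 553 of all genes. With a change of at least 1.5-fold added there were 6 (1 higher and 5 lower), with 8 related and 451 of all genes. When single arrays were left out, the members called numbered 8 to 12 (3 to 5 higher, 5 to 8 lower), related genes 8 to 16, and all genes 626 to 1132. Rad21 passed in each fit. Deviations of arrays with the same replicate number correlated weakly (0.101, -0.228 and -0.103), which cannot show whether those cultures were handled together. With the replicate block 13 members passed, without Lama1 and Lama5 (adjusted p = 0.0592 and 0.0529). The smallest change called among members was 0.34 on the log2 scale, and the 7 other called members lost their call without at least 1 array. Signal over background limits the 7 members below the median of all values, and depth does not apply to arrays.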
